A study of Mus musculus with 2 samples.

Results

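The Wnt ligands, their Frizzled receptors and Lrp co-receptors, the secreted Wnt inhibitors and the ligand-modifying enzyme gene Porcn were followed in cultured mouse hepatoblasts at passage 20 and at passage 5. Members were taken from the gene names on the array: every Wnt, Fzd, Sfrp and Dkk gene with a number, together with Lrp5, Lrp6, Wif1, Porcn and Frzb. This gave 42 genes of the 20054 named genes on the array, read by 57 of its 41158 gene probes. The cells were expandable hepatoblasts, liver progenitor cells of C57BL/6 mice, which were grown on Matrigel or laminin in a basal medium with insulin, transferrin, selenite, nicotinamide and albumin. Both cultures also received epidermal growth factor, CHIR99021, E-616452, lysophosphatidic acid and sphingosine 1-phosphate, and no Wnt protein is among the components listed. CHIR99021 inhibits the kinase GSK3, and E-616452 inhibits the TGF-beta type I receptor. Neither the age of the donor animals nor the matrix under each culture is given in the sources used here.

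Total RNA of 1 passage 20 culture and of 1 passage 5 culture was read on 1 one-colour Agilent array each. The 2 passages came from independent experiments, so passage and experiment cannot be told apart, and with 1 array per passage no difference below has a replicate check or a p-value. The arrays shared a slide and a scan. The passage 20 array had 46.1% of its gene probes clear of background and the passage 5 array 45.5%. Of 18 hepatoblast genes 13 were measured, of which 3 were at least 2-fold higher at passage 20 (Spp1 6.83-fold, Cdh1 2.89-fold and Prox1 2.02-fold) and 2 lower (Gpc3 at least 9.49-fold and Epcam 2.24-fold). Of all measured named genes, 3.26% were at least 2-fold higher and 5.74% lower. The hepatoblast markers Afp, Hnf4a, Foxa2, Krt8, Krt18, Krt19 and Sox9 stood clear of background on both arrays and were within 2-fold, whereas Alb, Ttr, Dlk1, Igf2 and Foxa1 were above background on neither. The cultures also differed in sex-linked transcripts, with Xist 36.5-fold higher at passage 20 and Ddx3y, on the Y chromosome, lower there by at least 21.4-fold. Eif2s3y, also on the Y chromosome, was lower by at least 20.5-fold. A difference in sex between the cultures cannot be told apart from passage either, and its part in the differences below was not tested.

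Wnt proteins are secreted, lipid-modified signals. Porcn, an acyltransferase, adds the lipid without which a Wnt neither leaves the cell nor binds a Frizzled. When a Wnt joins a Frizzled to Lrp5 or Lrp6, the complex that degrades beta-catenin stops working, and beta-catenin enters the nucleus to act with TCF and LEF factors. Other Wnts, Wnt5a among them, act mainly without beta-catenin, on cell polarity and movement. Sfrp proteins, Frzb and Wif1 bind Wnts outside the cell, while Dkk1 blocks Lrp5 and Lrp6. In the liver, Wnt signals guide the growth of hepatoblasts and later the zonation of hepatocytes around the central vein. GSK3, which CHIR99021 inhibits, is part of that beta-catenin complex.

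The array reads each gene through probes of 60 bases. The first 30 bases are printed for the probes above background of Wnt5a, Fzd5, Fzd10 and Sfrp2, which differed at least 2-fold, since these are the sequences from which their differences below were read. They are given 5′ to 3′ in lower case, with positions in build mm9 as in the deposited files.
Wnt5a, the brighter probe, chr14:29340427-29340486, plus strand: aaatgccttgttaacgaacttcatgaagca
Wnt5a, the other probe, which spans an intron, chr14:29331746-29335708, plus strand: caatgaagcaggccgtaggacagtatacaa
Fzd5, the 1 probe above background, chr1:64779196-64779255, minus strand: gtatctaaaagttgtggggtggagcggatg
Fzd10, the brighter probe, chr5:129109798-129109857, plus strand: ttgactctctgaattgttaaacaaatgatt
Fzd10, the other probe, chr5:129108855-129108914, plus strand: tgcaagaacaggacattcggagcccaaatg
Sfrp2, the 1 probe, chr3:83577864-83577923, plus strand: tcggcatctaagtcttcaaacatttcgttg

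Receptor genes were mostly detected, whereas most ligand and inhibitor genes were not. A gene counts as measured where its brightest probe was well above background on at least 1 array. By this rule 21 of the 42 members (50.0%) were measured, against 58.8% of all named genes. Of the 10 Frizzled genes 8 were measured, all on both arrays, as were Lrp5, Lrp6 and Porcn. Of the 19 Wnt ligands 8 were measured, 5 of them on both arrays (Wnt4, Wnt5a, Wnt6, Wnt7b and Wnt10a) and 3 at passage 5 only (Wnt2b, Wnt9a and Wnt11). Of the 6 inhibitors that bind Wnts, Sfrp2 was above background at passage 20 only and Sfrp1 at passage 5 only. The 4 Dickkopf genes were above background on neither array. An absence here means only that the probe did not stand out from background.

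**Figure D1:**
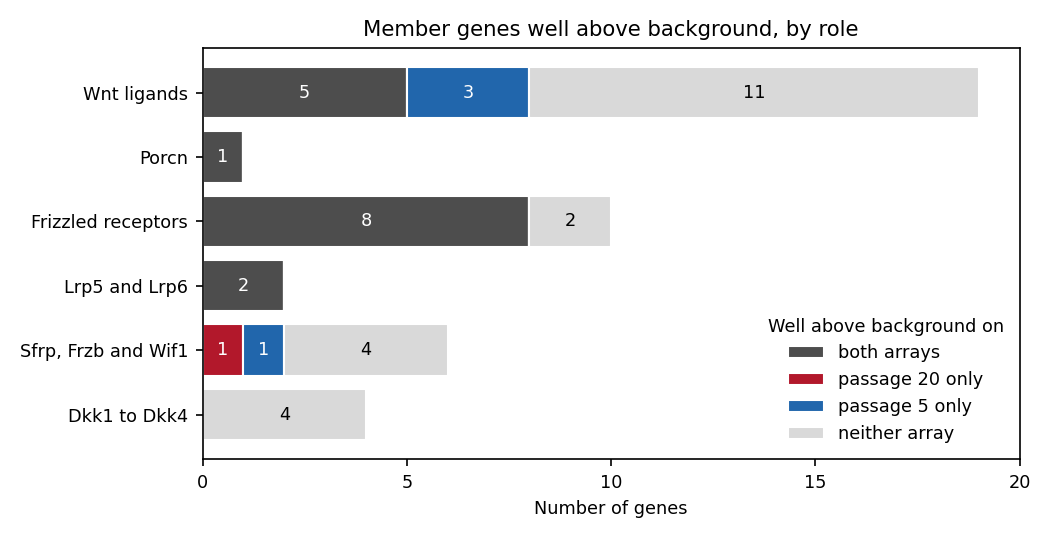
Number of member genes (x axis) by role (rows), divided by the arrays (both, passage 20 alone, passage 5 alone, neither) on which the brightest probe stood clear of background. Frizzled receptors were measured in 8 of 10 genes, Wnt ligands in 8 of 19 and Dickkopf genes in 0 of 4.

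Most measured members were within 2-fold between the passages. Of the 21, 3 were at least 2-fold higher at passage 20 (Wnt7b, Fzd5 and Sfrp2), 2 were at least 2-fold lower (Wnt5a and Fzd10), and 16 were within 2-fold. Of all 11798 measured named genes, 9.0% passed 2-fold, 3.26% higher and 5.74% lower; the 5 members that did so were 23.8% of those measured. Of these 5, Fzd5, Fzd10 and Sfrp2 lay close to the threshold. The split of 3 higher and 2 lower became 1 higher (Wnt7b) and 3 lower (Wnt5a, Fzd10 and Wnt4) when arrays were scaled to the median or to the external spike-in RNA. All measured genes moved as well, from 385 higher and 677 lower in the main setting. Median scaling gave 193 higher and 1127 lower of all genes, and spike-in scaling 233 higher and 964 lower. The median difference of the measured members was -0.24 log2, against 0.07 for all measured genes. Both medians include genes above background on 1 array only, among the members 4 at passage 5 and 1 at passage 20. The sign of such a value is fixed by the rule. Over genes above background on both arrays the median was -0.18 log2 for the members and 0.08 for all genes. Median scaling moved the medians over all measured members and genes, to -0.55 for the members and -0.24 for all genes. Spike-in scaling moved them to -0.45 for the members and -0.14 for all genes. Values are log2 signals relative to the 75th percentile of each array, and differences are passage 20 minus passage 5.

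**Figure D2:**
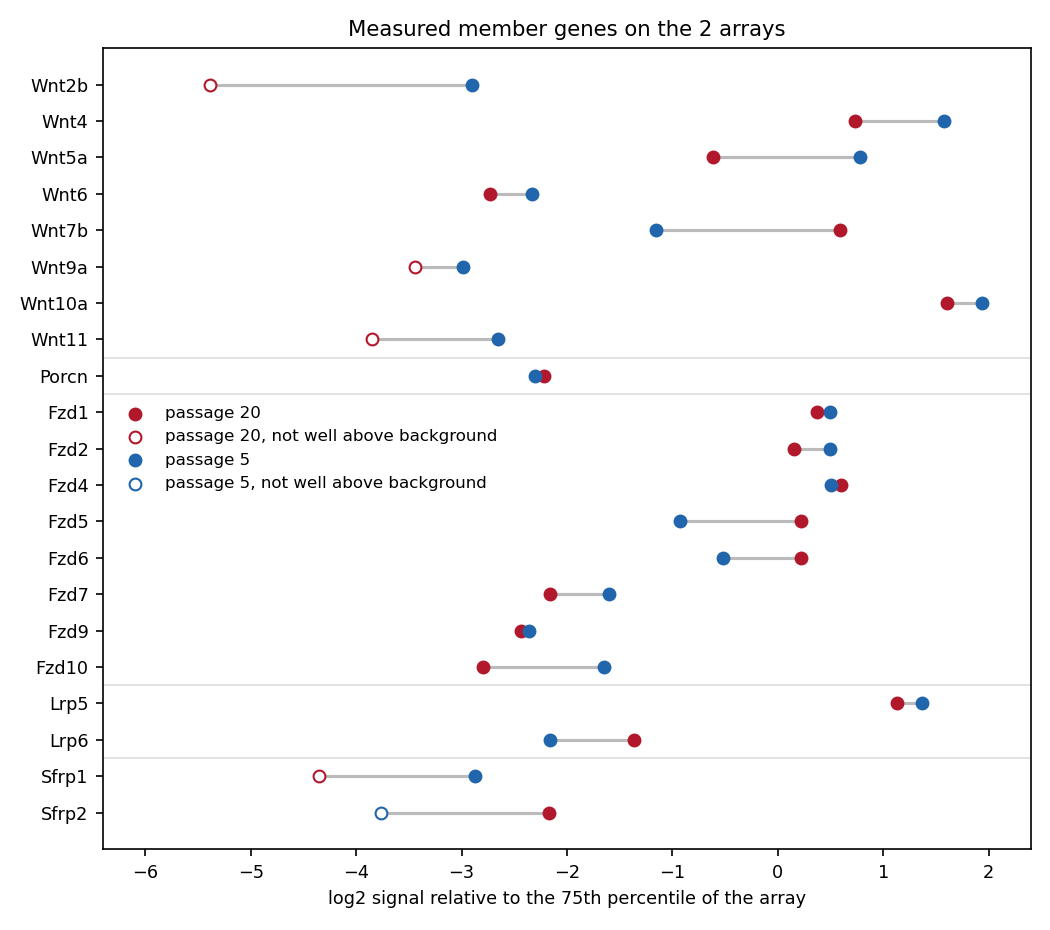
Log2 signal relative to the 75th percentile of the array (x axis) for the 21 measured members (rows, grouped by role), at passage 20 (red) and passage 5 (blue); open circles were not well above background. Points compare within a row only, since probes differ in brightness: the widest gap between filled circles is that of Wnt7b, at 0.59 for passage 20 and -1.16 for passage 5.

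Wnt7b, a ligand that acts through beta-catenin in the developing lung and brain vessels of mice, was the 1 measured ligand past 2-fold in the higher direction. Its processed signal was 1286 ± 130 at passage 20 and 486 ± 53.8 at passage 5, where the error is the scanner software's own estimate for 1 spot. On the scaled log2 axis it stood at 0.59 at passage 20 and at -1.16 at passage 5. The difference of 1.75 log2, or 3.37-fold, had a scanner error of 0.22 log2, and 2.67% of all measured genes differed by as much. It stayed between 1.44 and 1.75 log2 under all 11 alternative processings. Those on the filter for dim probes and on averaging probes could not change it. Wnt7b has 1 probe on this array, so no second probe bears on the value.

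Wnt5a, the ligand best known for signalling without beta-catenin, differed the other way. Its brighter probe gave a signal of 557 ± 59.0 at passage 20 and 1865 ± 188 at passage 5. Scaled, these were -0.62 at passage 20 and 0.78 at passage 5, a difference of -1.40 log2 (2.63-fold lower, scanner error 0.21). The other probe, also above background on both arrays, read -2.68 at passage 20 and -1.73 at passage 5 and differed by -0.95 log2. Both probes were thus lower at passage 20, with 1 of them just inside 2-fold. Over the alternatives the gene's difference ran from -1.71 to -1.17 log2.

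The other ligands above background on both arrays were also lower at passage 20, within 2-fold. Wnt4, a ligand needed for kidney tubules and the female gonad, had a signal of 1419 ± 143 at passage 20 and 3224 ± 323 at passage 5. Its difference was -0.84 log2 with a scanner error of 0.21, and it passed 2-fold only with median scaling (-1.15) and spike-in scaling (-1.05). Wnt10a, an epithelial ligand of hair and tooth development, stood at 1.61 at passage 20 and 1.94 at passage 5, a difference of -0.33 log2. Wnt6 stood at -2.73 at passage 20 and -2.33 at passage 5, a difference of -0.40 log2 with a scanner error of 0.35. The other probe of Wnt6 was above background on neither array. Differences of these 3 ligands kept their sign under every alternative tried. The alternatives on the filter for dim probes and on averaging measured probes could not change them. Porcn, which every ligand needs, differed by 0.08 log2, and its sign turned under 5 alternatives (median, spike-in, quantile and loess scaling and the authors' values).

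Ligands above background at passage 5 only have a bound, computed against the lowest signal well above background on the passage 20 array (-3.17 log2). That floor is not a firm limit: the brighter probe of Wnt3, at -2.76 at passage 20, was not well above background. The fold values below hold only against that floor. Wnt11, a ligand of cell movement in gastrulation, read -3.85 at passage 20 and -2.65 at passage 5, and was at least 1.43-fold lower. Wnt2b, whose zebrafish counterpart is needed for the liver bud, read -5.39 at passage 20 and -2.90 at passage 5, and was at least 1.20-fold lower. Wnt9a read -3.44 at passage 20 and -2.99 at passage 5, and was at least 1.14-fold lower. The other probe of Wnt9a was above background on neither array. None of the 3 ligand bounds reached 2-fold, and with normexp background correction the bound of Wnt9a was 0.00. A gene seen at passage 5 only cannot have a bound above 0. The sign of these 3 bounds was thus fixed by the rule, and they are not counted as directions here. Of the 5 ligands above background on both arrays, 4 had a difference below 0, and of all 10749 named genes above background on both arrays 40.4% did. These counts are from the main setting. With median scaling the median of all genes moved from 0.07 to -0.24 log2, and that of the measured members from -0.24 to -0.55.

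Ligand genes that lie next to each other were read alike in some pairs and not in others. The RefSeq table places 4 pairs of members with no protein-coding gene between them: Wnt6 with Wnt10a, Wnt1 with Wnt10b, Wnt3 with Wnt9b, and Wnt3a with Wnt9a. Wnt6 and Wnt10a, whose probes lie 19.2 kb apart on chromosome 1, were both above background on both arrays. Wnt1 and Wnt10b (21.1 kb apart on chromosome 15) and Wnt3 and Wnt9b (90.1 kb apart on chromosome 11) were above background on neither. In the pair Wnt3a and Wnt9a (85.0 kb apart on chromosome 11), Wnt9a alone was above background, at passage 5.

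**Figure D3:**
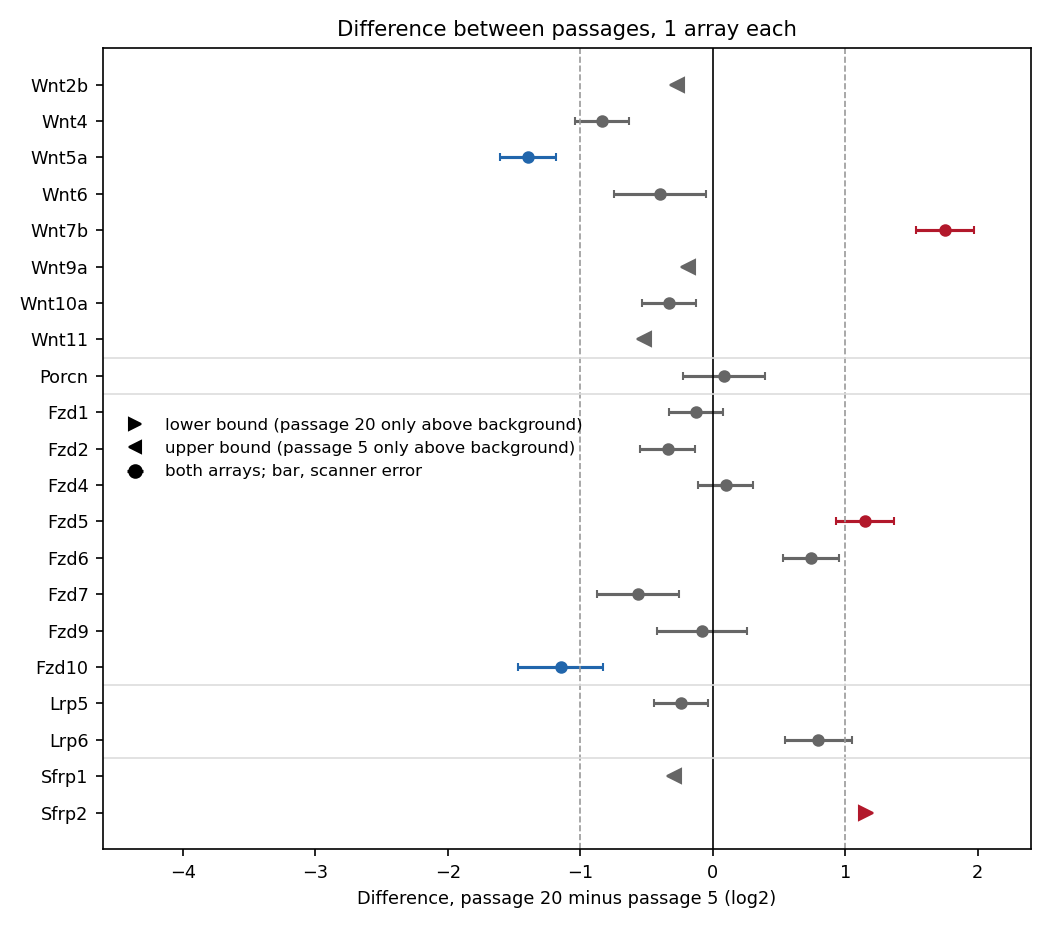
Difference between passages (passage 20 minus passage 5, log2; x axis) for the 21 measured members (rows). Circles are genes above background on both arrays with the scanner error as a bar, arrowheads are bounds, and dashed lines mark 2-fold; red and blue mark genes at least 2-fold higher (Wnt7b, Fzd5, Sfrp2) and lower (Wnt5a, Fzd10) at passage 20.

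Among the receptors, Fzd5 was higher and Fzd10 lower at passage 20 by nearly the same factor. Fzd5, a receptor of the gut epithelium, had a signal of 993 ± 102 at passage 20 and 569 ± 62.3 at passage 5. Scaled, it stood at 0.22 at passage 20 and -0.93 at passage 5, a difference of 1.15 log2 (2.22-fold, scanner error 0.22). It fell short of 2-fold with median scaling (0.84) and spike-in scaling (0.94), and its other probe was above background on neither array. Fzd10 had a signal of 122 ± 23.1 at passage 20 and 345 ± 41.1 at passage 5, and a difference of -1.15 log2 (2.22-fold lower, scanner error 0.32). Its other probe, above background at passage 5 only, differed by -1.23 log2, a plain difference, as its passage 20 value lay above the floor. Fzd10 is dim, and with normexp background correction its difference shrank to -0.37 log2.

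The remaining Frizzleds were within 2-fold. Fzd6, a receptor of planar cell polarity, stood at 0.22 at passage 20 and -0.52 at passage 5, a difference of 0.74 log2 with a scanner error of 0.21. Fzd7, a receptor of intestinal stem cells in mice, stood at -2.17 at passage 20 and -1.60 at passage 5, a difference of -0.56 log2 with a scanner error of 0.31. Fzd2 differed by -0.34, Fzd1 by -0.13 and Fzd9 by -0.08 log2, and Fzd9 turned positive (0.31) with normexp. Fzd2 and Fzd7 each have another probe, above background on neither array. Fzd4, which also binds the non-Wnt ligand norrin, differed by 0.10 log2 and turned negative with median scaling (-0.21) and spike-in scaling (-0.11). The brightest probe of Fzd3 was above background on neither array; another of its 3 probes was above it at passage 5, with no difference in its bound. Fzd8 was above background on neither array.

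The co-receptors differed in opposite directions, both within 2-fold. Lrp6 had a signal of 331 ± 38.1 at passage 20 and 242 ± 32.4 at passage 5. Scaled, it stood at -1.37 at passage 20 and -2.16 at passage 5, a difference of 0.80 log2 (1.74-fold, scanner error 0.25) that stayed between 0.49 and 0.80 log2 over the alternatives. The other probe of Lrp6 was above background on neither array. Lrp5, a co-receptor known for its role in bone mass, stood at 1.13 at passage 20 and 1.37 at passage 5, a difference of -0.24 log2. Over the 16 members measured on both arrays, 4 differences were smaller than 1 scanner error (Fzd1, Fzd4, Fzd9 and Porcn) and 7 were larger than 2 (Wnt7b, Wnt5a, Wnt4, Fzd5, Fzd6, Fzd10 and Lrp6). That error covers the reading of a spot and not the spread between cultures.

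Of the inhibitors, Sfrp2 came above background at passage 20. Its signal was 190 ± 27.7 at passage 20 and 79.7 ± 24.6 at passage 5, where it was not well above background, so that it was at least 2.22-fold higher. This bound fell under 2-fold in 6 of 10 alternatives, with a lowest value of 0.84 log2. Sfrp1 had a signal of 41.7 ± 20.3 at passage 20, not well above background, and 148 ± 27.2 at passage 5. It was at least 1.23-fold lower against the passage 20 floor, which is not a firm limit. Of its 2 probes 1 was used, the other being above background on neither array. Sfrp4, Sfrp5, Frzb, Wif1 and all 4 Dickkopf genes (Dkk1, Dkk2, Dkk3 and Dkk4) were above background on neither array. So were the ligands Wnt1, Wnt2, Wnt3, Wnt3a, Wnt5b, Wnt7a, Wnt8a, Wnt8b, Wnt9b, Wnt10b and Wnt16. Wnt1 has 10 spots on the array, and none was well above background at either passage.

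**Figure D4:**
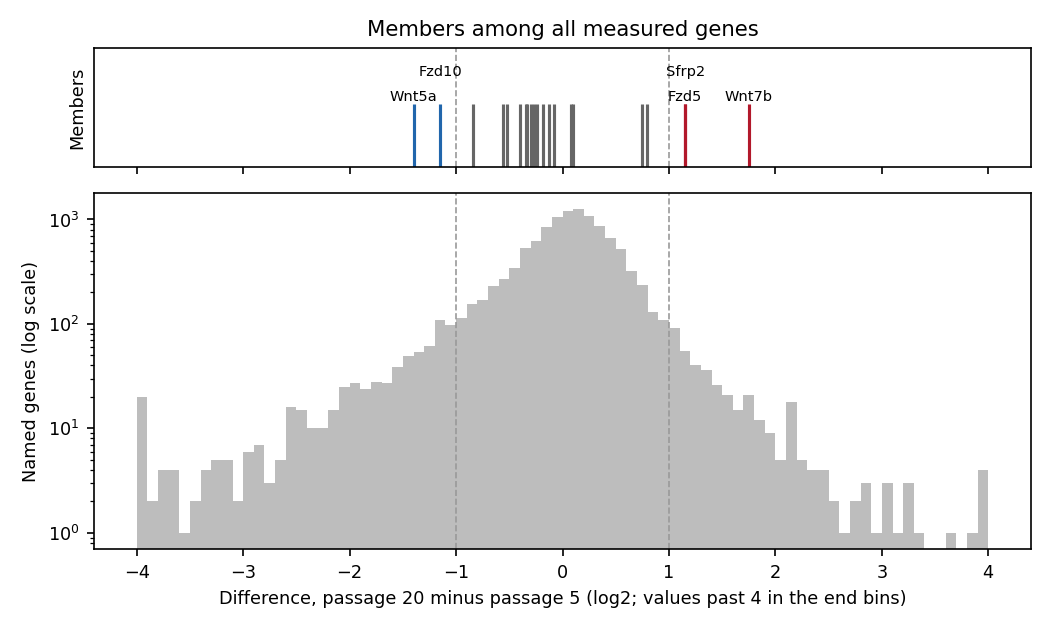
Differences (passage 20 minus passage 5, log2; x axis) of the 21 measured members (upper panel, 1 line each) above those of all 11798 measured named genes (lower panel, log y axis; values past 4 are in the end bins), with dashed lines at 2-fold. Wnt7b, at 1.75, was the member farthest from 0, and most lines lie between the dashed lines.

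Promoter windows are shown for Fzd5, Fzd10 and Sfrp2, the members at least 2-fold different that the RefSeq table used here lists; Wnt5a and Wnt7b are named only. Each window is the 250 bases before the gene's start in GRCm38.p6, 5′ to 3′ on the gene's strand, and capitals mark the GC box, GGGCGG on either strand.
Fzd5, chr1:64737751-64738000, minus strand: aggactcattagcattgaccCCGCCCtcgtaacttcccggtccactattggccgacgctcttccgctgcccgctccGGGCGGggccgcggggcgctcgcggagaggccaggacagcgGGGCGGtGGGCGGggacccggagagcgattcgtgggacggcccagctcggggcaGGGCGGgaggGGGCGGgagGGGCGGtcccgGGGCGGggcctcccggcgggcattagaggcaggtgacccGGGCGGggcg
Fzd10, chr5:128600856-128601105, plus strand: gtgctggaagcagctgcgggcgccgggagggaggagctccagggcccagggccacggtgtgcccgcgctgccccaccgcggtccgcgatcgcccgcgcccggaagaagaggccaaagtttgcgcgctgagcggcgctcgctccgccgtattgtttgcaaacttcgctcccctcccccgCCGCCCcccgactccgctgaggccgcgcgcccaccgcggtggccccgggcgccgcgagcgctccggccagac
Sfrp2, chr3:83766071-83766320, plus strand: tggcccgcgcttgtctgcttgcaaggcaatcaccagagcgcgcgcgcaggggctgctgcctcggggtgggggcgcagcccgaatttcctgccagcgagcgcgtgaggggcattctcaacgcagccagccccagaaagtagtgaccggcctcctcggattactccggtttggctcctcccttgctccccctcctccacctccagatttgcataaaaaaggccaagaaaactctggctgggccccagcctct

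The window of Fzd5 holds 9 GC boxes, that of Fzd10 holds 1 and that of Sfrp2 holds 0. Both Frizzled windows are 76.4% G and C and that of Sfrp2 63.6%, against a median of 52.4% over 32851 promoter windows. Of the 42 members 27 matched the table, with 30 windows, 73.3% of which hold a GC box, against 32.7% of all windows. The member windows are also richer in G and C, with a median of 67.4% against 52.4% for all windows. A TCF/LEF motif (CTTTGAT or CTTTGAA, either strand) was found in 10.0% of the member windows (those of Wnt5b, Wnt11 and Dkk1), against 7.48% of all. A TATA box (TATAAA, either strand) was found in 16.7% of the member windows, against 12.4% of all. These motifs do not overlap each other in sequence, and the matches are descriptions of letters, not of binding.

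The rest of the Wnt pathway was within 2-fold for most genes. Of 82 further pathway genes on the array, 63 were measured: at passage 20, 2 were higher and 7 lower by 2-fold or more, or 14.3% of those measured, with a median of 0.03 log2. Of all measured genes 3.26% were higher and 5.74% lower, so more lower than higher calls were found across the whole array too. The split of the pathway genes ran from 1 higher and 10 lower with median scaling to 1 higher and 5 lower with normexp. Past 2-fold were 17.5% of the measured pathway genes with median scaling, against 11.2% of all measured genes. With normexp these shares were 9.52% and 5.52%. Axin1, the scaffold of the beta-catenin destruction complex, alone passed 2-fold by brightest probe among 40 measured genes of the signal chain inside the cell. It was 2.72-fold lower, at -1.53 at passage 20 and -0.08 at passage 5. Other probes passed 2-fold for Csnk1g1 (1.31 log2), Chd8 (1.27), Tnks (1.03) and Csnk1a1 (-1.05). With median scaling Dvl2, Lef1 and Tle2 were also lower by 2-fold or more. The beta-catenin gene Ctnnb1 differed by 0.33 and the transcription factor gene Tcf7l2 by -0.07 log2. Wls, the carrier that takes Wnts to the cell surface, differed by -0.01 log2, with another probe at 0.54.

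Of the 7 lower genes, 6 act outside the cell, at the membrane or in feedback on the pathway. Notum, an enzyme that removes the lipid from Wnts, was at least 2.26-fold lower. Dact2 and Dact1, which bind Dishevelled, were 4.12-fold and at least 5.36-fold lower. Nkd1, another Dishevelled-binding feedback gene, was at least 3.29-fold lower. The other probe of Dact1 gave -1.38 log2, and with normexp neither Notum nor Dact1 passed 2-fold. Igfbp4, a binding protein of insulin-like growth factors, was at least 12.0-fold lower, and Prickle1, a planar polarity gene, 2.77-fold lower. The polarity cadherin gene Celsr2 was at least 2.63-fold higher. Lgr5, a receptor of R-spondins, was 2.24-fold higher by its brightest probe, while its other probe differed by -0.73 log2, and it fell short of 2-fold with median scaling, spike-in scaling and normexp. Axin2, a widely used readout of beta-catenin activity, differed by 0.12 log2.

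**Figure D5:**
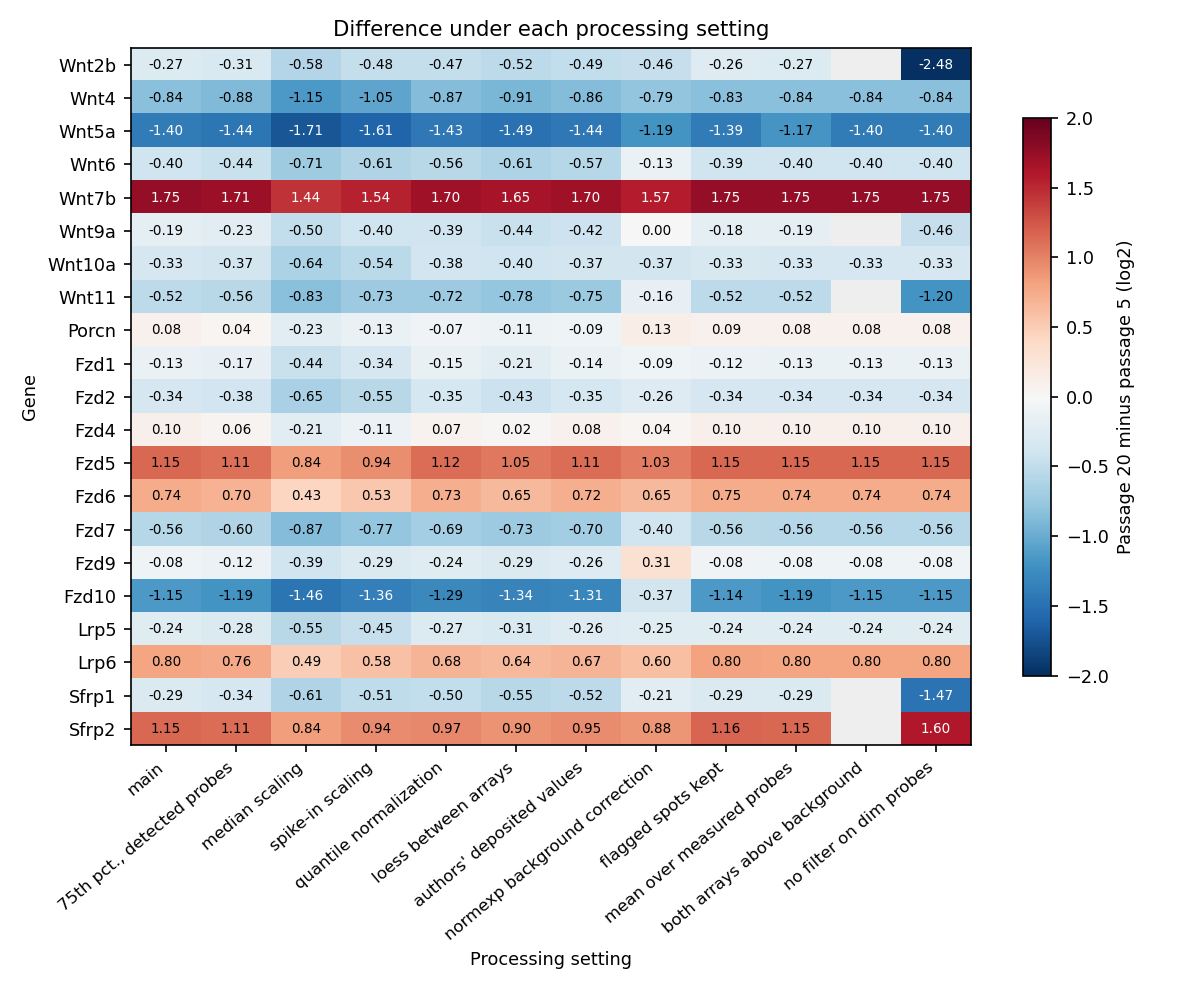
Difference (passage 20 minus passage 5, log2; colour and number) of each measured member (rows) under the main setting and 11 alternatives (columns); grey cells have no value. Wnt7b stayed above 1 and Wnt5a below -1 in every column, while Fzd5, Fzd10 and Sfrp2 crossed 2-fold in some.

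Markers of cells other than hepatoblasts differed between the arrays as well. Of all measured named genes, 5.74% were at least 2-fold lower and 3.26% higher at passage 20. A marker seen at passage 5 only can be called lower but not higher, so the counts below are not read as directions. Of 20 stellate and fibroblast markers 6 were measured, 4 of them at least 2-fold lower and 0 higher at passage 20. The summed relative signal of these stellate and fibroblast markers was 29.5 at passage 20 and 50.1 at passage 5. Col1a1, Pdgfra, Pdgfrb, Des and Lrat were above background on neither array. The lower genes were Fbln2, by 29.1-fold, and, seen at passage 5 only, Col5a1, Col6a1 and Dcn. Bounds were 3.47-fold for Col5a1 and 15.9-fold for Dcn. Col6a1 was 4.18-fold lower by its plain difference, as its passage 20 value lay above the floor. Without Fbln2 the sum was 28.9 at passage 20 and 31.8 at passage 5. The other 2 measured markers were within 2-fold by their brightest probes. Acta2, by far the largest part of that remainder, stood at 4.65 log2 at passage 20 and 4.75 at passage 5. Another Acta2 probe gave a difference or bound of -3.11 log2, while Reln differed by 0.73 log2. Of 13 mesothelial markers 10 were measured, 4 of them lower and 0 higher, and the defining genes Upk3b and Wt1 were above background at passage 5 only. Their summed relative signal, most of it from Msln, was 226 at passage 20 and 169 at passage 5; without Msln it was 4.89 at passage 20 and 11.0 at passage 5. Of 16 endothelial markers 2 were measured, both lower, with Pecam1 above background on neither array; of 15 leukocyte markers 7 were measured, with 1 higher and 1 lower, and of 10 erythroid markers 2 were measured, with 0 higher and 1 lower. Summed relative signals were 0.696 at passage 20 and 2.24 at passage 5 for the endothelial list, 9.84 at passage 20 and 4.68 at passage 5 for the leukocyte list, and 0.215 at passage 20 and 0.564 at passage 5 for the erythroid list. Without Cd14 the leukocyte sum was 1.27 at passage 20 and 1.47 at passage 5, and Ptprc, Adgre1, Clec4f and Tyrobp were above background on neither array. The part of these cells in the differences of Wnt5a, Fzd10 and the ligands seen at passage 5 only was not tested, and in such bulk RNA fewer cells of a type and less RNA per cell cannot be told apart.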

How the data were processed

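Cy3-labelled RNA, amplified from 1 culture per passage, was read on one-colour arrays, per the labels' protocols. Per the file headers, the deposited spot intensity came from Agilent's software, Feature Extraction version 10.7.3.1: background-subtracted, detrended and set to a surrogate where it did not exceed noise. The authors also deposited log2 values with nearly the same sorted values in both columns (largest gap 0.000609) (median 6.31), read here as quantile-normalised and used as an alternative. Their correlation with the scanner's log2 signals across probes was r = 0.99986 for passage 20 and 0.99987 for passage 5. The deposited flags (0 or 1, no score) mark outlier spots, which were left out on both arrays, and signal well above background; 0 gene spots were saturated.

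Spots were averaged per probe on the log2 scale, from which the 75th percentile of all gene probes on that array was then taken away. A gene took its brightest probe by mean value. Genes were named through the RefSeq table of GRCm38.p6: 27659 probes by accession, 5586 by symbol and 471 by an older symbol, while 7442 stayed unnamed. A gene above background on 1 array was given a bound against the higher of the dim probe's value and the lowest value well above background on the dim array (-3.17 log2 at passage 20, -3.32 at passage 5). Some probes brighter than that lowest value were not well above background, so a bound is not a firm minimum. A gene passed at 2-fold. Values were computed in Python 3.11.15; limma 3.58.1 in R 4.3.3 gave the quantile, loess and normexp alternatives. Probes with 10 spots, 116 of 245 above background in all, had a median technical SD of 0.08 log2 for a difference. The scanner error of a difference joins the software's errors of both spots. All members are named. Of the other pathway genes, those past 2-fold by any measured probe or with median scaling are named, with Axin2, Lgr5, Ctnnb1, Wls and Tcf7l2. The members and lists were chosen with earlier results of these data known. The steps were tested on simulated data, with changes past 2-fold and less noise than the scanner errors. Changed genes were scored only where above background on both arrays, so members near 2-fold and bounds were not covered. No p-value can be computed from 1 array per passage, and the number of arrays limits the precision. The probe sequence of Wnt7b is not reported here.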

Additional observations from a re-analysis of the deposited data

How the results depend on the processing

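Processing changed mainly the counts near 2-fold. Against 3 higher and 2 lower members in the main setting, median scaling gave 1 higher and spike-in scaling 1 higher, each with 3 lower; normexp gave 2 higher and 1 lower. With no filter on dim probes, all 42 members counted as measured, with 5 higher and 8 lower. A 1.5-fold threshold gave 5 higher and 3 lower, and a 4-fold threshold 0 and 0. Counts over all genes are not given here for the unfiltered values or for these thresholds. The member counts there are thus not read as results about the members. The median difference of the measured members, -0.24 log2 in the main setting, was -0.55 with median scaling, -0.45 with spike-in scaling, -0.35 with quantile normalization, -0.40 with loess, -0.11 with normexp, -0.35 with the authors' values and -0.088 with no filter; it stayed below 0 in all 11. Wnt7b and Wnt5a passed 2-fold in all 11 and no member that passed 2-fold changed sign. The settings on the filter for dim probes could not change Wnt7b or Wnt5a, and averaging probes could not change Wnt7b. Why normexp pulls Fzd10 to -0.37 log2 was not tested. The counts of the other pathway genes under 8 of these alternatives were chosen after seeing the data: they gave 1 to 2 higher and 5 to 10 lower. No paired analysis was possible because each passage has 1 array. Signal limits the dim members: Wnt6, at a signal of 128 at passage 20, had a scanner error of 0.35 log2, against a median of 0.21 over the 16 members measured on both arrays. No array could be left out, since each passage has 1.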

Other observations

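Some members above background on neither array had nominal differences past 2-fold. The brighter probe of Wnt3 read 126 at passage 20 and 30.0 at passage 5, a nominal 2.41 log2, where the passage 5 value is a surrogate; its other probe held a surrogate on both arrays. The 2 probes of Dkk1 differed in opposite directions, by 1.06 and -1.32 log2. Sfrp4 read 22.5 at passage 20 and 87.4 at passage 5, Wif1 27.2 at passage 20 and 74.4 at passage 5, and Fzd8 21.1 at passage 20 and 53.9 at passage 5. Of the 33 member probes above background on neither array, 12 held a surrogate value on both arrays, so that their difference carries no measurement.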
